A study of Homo sapiens with 6 samples.

Results

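The loci described here were stretches of the genome with a cluster of reads in all 3 immunoprecipitates of an Angel1 eCLIP experiment, control included. They were the autosomal clusters of the FLAG-only control that shared 1 nt or more, in the same orientation, with a cluster of FLAG-Angel1 IP replicate 1 and likewise with a cluster of FLAG-Angel1 IP replicate 2, whatever their enrichment. The first stretch of chromosome 21, up to the region of its centromere, was left out by the rule and held 0 control clusters. In total, 1733 of 5332 autosomal control clusters met this rule (32.5%, Wilson 95% interval 31.3 to 33.8), and are called shared loci below. The 3 lists held 5717 clusters for the control, 102843 for replicate 1 and 96960 for replicate 2.

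The experiment consisted of 6 libraries from HEK293, a human embryonic kidney cell line, here per the methods its Flp-In T-REx derivative made for stable, tetracycline-regulated expression. There was an IP and its size-matched input for each of 2 FLAG-Angel1 replicates and for 1 control. Per the labels, all cells received 5 ng/mL tetracycline for 24 h to switch on the FLAG-Angel1 construct, were irradiated at 254 nm with 400 mJ/cm2, and were lysed for IP with an M2 antibody against FLAG. The labels give FLAG-Angel1 as the genotype of the control libraries too, whereas the methods of the study describe the control cells as lacking a FLAG fusion protein. The methods also mention a sample that was not cross-linked, which no label marks. The control had no replicate, so no difference between control and FLAG-Angel1 was tested, and the clusters within a library are not replicates of it.

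In eCLIP, ultraviolet light fuses proteins to the RNA they touch, the protein of interest is pulled down with its RNA fragments, and the fragments are sequenced. The size-matched input is cut from the same gel range without the pull-down, and enrichment is read as IP over input. A control pull-down from cells without the tagged protein shows RNA that is recovered by the beads, the antibody or other proteins. Angel1 is a relative of the CCR4 deadenylases to which a 2′,3′ cyclic phosphatase activity on RNA ends has been ascribed, and the study addressed its role in the decay of mRNAs on which ribosomes stall.

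For each cluster, the authors gave a log2 fold, IP against input, with its P. Where a shared locus touched several clusters of a FLAG-Angel1 replicate, the one with the longest overlap was used as its partner. In the control, the log2 fold of the shared loci ran from -3.59 to 11.51 with a median of 3.15. It ran from -8.42 to 5.19 (median 1.35) for FLAG-Angel1 replicate 1, and from -6.75 to 5.31 (median 2.32) for replicate 2. Over all autosomal clusters, the control list had a median of 5.28, that of replicate 1 of 0.57 and that of replicate 2 of 1.73. The shared loci thus lay lower than the list as a whole in the control, and higher in both FLAG-Angel1 IPs. The log2 fold was higher in replicate 2 than in replicate 1 at 1415 of the 1733 loci (81.7%), with a median difference of 1.02. The folds were computed against a separate input in each library, and the part of the inputs in this offset was not tested.

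**Figure D1:**
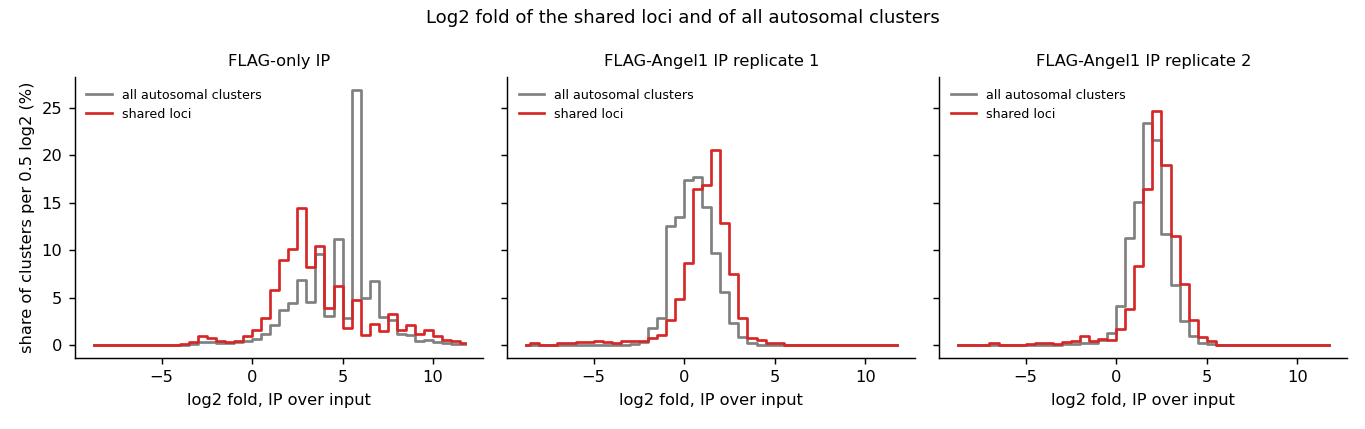
Distribution of the authors' log2 fold of IP over input (x axis) as the percent of clusters per bin (y axis), for shared loci and for all autosomal clusters in the control IP and both FLAG-Angel1 IPs. The shared loci had a median of 3.15 against 5.28 over all clusters in the control, 1.35 against 0.57 in replicate 1 and 2.32 against 1.73 in replicate 2.

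Enrichment was taken as P below 0.05 together with a log2 fold above 0. Of the 1733 shared loci, 1441 were enriched in the control (83.2%, against 92.9% of all its autosomal clusters). In replicate 1, 866 were enriched (50.0%, background 11.5%), and in replicate 2 it was 1356 (78.2%, background 40.5%). With P below 0.001, 726 loci passed in the control (41.9%, background 65.1%). The FLAG-Angel1 counts at this level were 545 for replicate 1 (31.4%, background 4.1%) and 1096 for replicate 2 (63.2%, background 16.6%). Because the presence of a cluster in every list chose these loci, nothing is read from their distance to the background. Enrichment in both FLAG-Angel1 IPs was found at 840 loci (48.5%) and in all 3 IPs at 664 loci (38.3%). No share over all clusters is set beside these joint counts or the classes that follow, so nothing is read from their size.

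The 664 loci enriched in all 3 IPs had a median log2 fold of 2.88 in the control, and for FLAG-Angel1 medians of 1.97 and 2.64 in replicates 1 and 2. A further 477 loci (27.5%) were enriched in the control and replicate 2, with a replicate 1 median of 0.91. There were 283 loci (16.3%) that passed in the control alone, with a control median of 6.54 against 0.47 and 1.73 for FLAG-Angel1 replicates 1 and 2. Conversely, 176 loci (10.2%) passed in both FLAG-Angel1 IPs but not in the control, where their median was 1.23. The remaining classes were 39 loci enriched in replicate 2 alone, 17 in the control and replicate 1, 9 in replicate 1 alone and 68 in none. Taken as single clusters, which are often pieces of a wider stretch, the control-only loci had a median width of 19 nt. For those enriched in all 3 it was 49 nt, and widths with abutting clusters joined are not given by class. Of the control-only loci, 117 (41.3%) lay on chromosome 21.

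The share of FLAG-Angel1 clusters past the threshold on P is also given at a like log2 fold, as a description of clusters that the rule chose. Between log2 folds of 1 and 2, 392 of 587 distinct partner clusters of replicate 1 were enriched (66.8%), against 4501 of 23502 other clusters (19.2%). In replicate 2 the corresponding counts were 283 of 390 (72.6%) and 8789 of 35682 (24.6%). Between 2 and 3, the shares were 90.9% and 60.7% in replicate 1 and 88.8% and 60.7% in replicate 2. Between 3 and 4 every cluster passed, namely 53 of 53 and 1029 of 1029 in replicate 1 and 277 of 277 and 7956 of 7956 in replicate 2. At a given fold, P becomes smaller with more reads, and read numbers per cluster were not used here, so their part in this was not tested.

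The relation of the shared loci to the control fold was not monotonic. Of the control clusters with a log2 fold at or below 0, 73 of 104 were shared (70.2%), and between 0 and 2 it was 335 of 402 (83.3%). The share was 55.3% between 2 and 4 (748 of 1353), 12.4% between 4 and 6 (290 of 2346) and 15.2% between 6 and 8 (140 of 922). Above 8 it was 71.7% (147 of 205). Most control clusters between 4 and 8 were thus not shared, although the shared loci of these ranges, 290 and 140, still outnumbered together the 147 above 8.

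The control folds clustered on steps, as ratios of small whole numbers of reads do. Taking the most frequent log2 fold of the control, 5.54, as 3 IP reads per input read, equal numbers of reads correspond to a log2 fold of 3.95. On this scale the shared loci had a median of 0.571 IP reads per input read, against 3 for the other control clusters. At 1082 shared loci (62.4%) there were fewer IP than input reads, which was so for 498 of the 3599 other clusters (13.8%). Only 49 shared loci (2.83%) sat at the most frequent fold itself, against 927 of the others (25.8%). This ratio was inferred from the spacing of the folds, and its part in the membership was not tested.

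**Figure D2:**
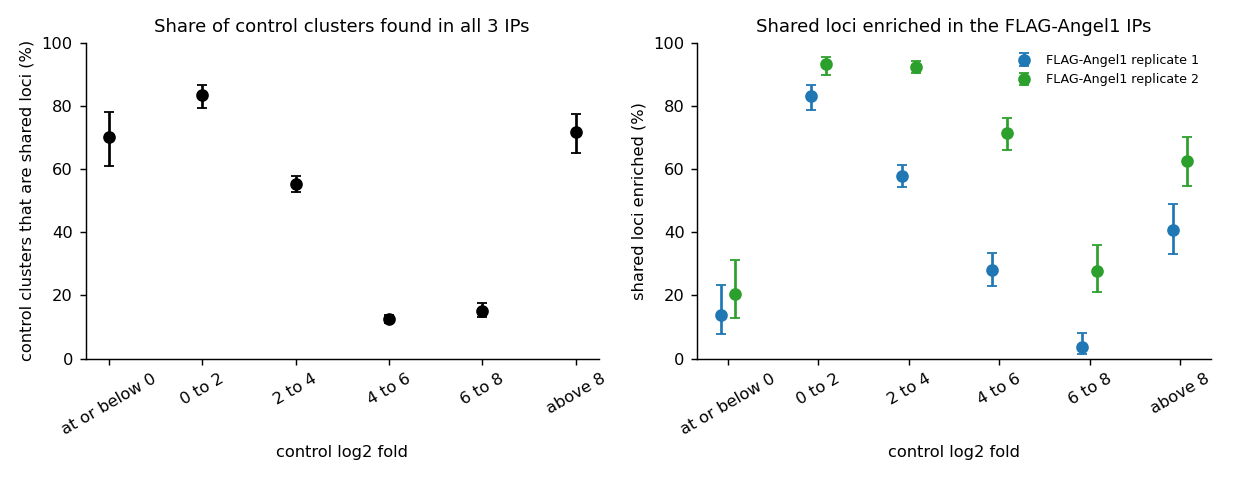
Shared loci by range of control log2 fold (x axis), as the percent of control clusters that were shared and the percent of shared loci enriched in each FLAG-Angel1 IP, with Wilson 95% intervals. The shared percent fell from 83.3 between 0 and 2 to 12.4 between 4 and 6 and stood at 71.7 above 8.

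The FLAG-Angel1 values differed along the same axis. Of the 73 shared loci with a control fold at or below 0, 13.7% were enriched in replicate 1 and 20.5% in replicate 2. Enrichment in replicate 1 was found at 83.0% of the shared loci with control folds between 0 and 2, at 57.8% between 2 and 4, at 27.9% between 4 and 6, at 3.57% between 6 and 8 and at 40.8% above 8. In replicate 2 the shares in these ranges were 93.1%, 92.4%, 71.4%, 27.9% and 62.6%. Median cluster width was 42 nt at or below 0, 54 nt between 0 and 2, 16 nt between 6 and 8 and 10 nt above 8. These are widths of pieces, since clusters were often split, and with abutting clusters joined the medians from 0 to 2 upward were 56, 53, 55, 27 and 25 nt. The plus strand held 112 of the 140 shared loci between 6 and 8, against 439 of the 782 control clusters there that were not shared (56.1%). Chromosomes 13, 18 and 21 held 107 of these 140 loci and 241 of the 782 others. Above 8 the plus strand held 81.0% of the shared loci, beside 79.3% of the control clusters that were not shared.

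As single clusters of any control fold, shared loci had a median width of 44 nt (quartiles 19 and 63). The other control clusters had 24 nt (13 and 44). Shared loci were wider in each range of control fold from 0 to 6, with 37.5 against 19 nt between 4 and 6. They were narrower at or below 0 (42 against 46 nt), between 6 and 8 (16 against 24 nt) and above 8 (10 against 16 nt). With abutting clusters joined, runs with shared loci were narrower only between 6 and 8 (27 against 42 nt) and above 8 (25 against 28 nt). The part of width in the membership was not tested. The median overlap with the partner was 34 nt for replicate 1 and 33 nt for replicate 2. Among shared loci, 786 (45.4%) lay wholly within their replicate 1 partner and 760 (43.9%) within that of replicate 2. Exact ends were seldom the same, with the 5′ end shared with the partner at 7.91% of loci in replicate 1 and 8.31% in replicate 2, while the partners of both replicates had the same 5′ end at 14.3%. At the edge of the rule, 13 shared loci overlapped by only 1 nt in at least one replicate, with control folds from -2.02 to 6.95 (median 4.54). The 7 control clusters that abutted a FLAG-Angel1 cluster without overlapping it, and so fell just outside, had control folds from 0.31 to 4.54 (median 3.54).

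Further FLAG-Angel1 clusters lay near many shared loci. Leaving out the overlapping clusters, which the rule requires, a shared locus had a median of 2 replicate 1 clusters and 2 replicate 2 clusters within 1000 nt on its strand, where the other control clusters had 0 and 0. Within 10000 nt the medians were 8 and 9 against 3 and 3. Abutting pieces of an overlapping cluster are counted here as neighbours. Among the control clusters that were not shared, 2319 (64.4%) nevertheless had clusters of both FLAG-Angel1 IPs within 10000 nt.

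Chained on the same strand across gaps of up to 10000 nt, the shared loci formed 959 neighbourhoods. Of these, 569 (59.3%) held a single locus and 49 held 5 or more, for 336 loci in all (19.4%). No like count is given for the other control clusters, so no grouping particular to the shared loci is read from this. The neighbourhood with the most loci, 22, was on the minus strand at chr19:33792171-33793322, in GRCh37 coordinates as are all positions here, but these loci were pieces of only 8 runs of abutting clusters. Counted by runs, the minus strand of chr6:31498572-31508166 came first with 11 runs. The minus strand of chr7:26232107-26240357 held 12 loci in 10 runs. Its log2 folds ran from 0.63 to 2.08 in the control (median 1.49), and for FLAG-Angel1 from 0.94 to 2.74 in replicate 1 (median 1.70) and from 1.98 to 3.48 in replicate 2 (median 2.48). Of its 12 loci, 3 passed in the control, whereas 11 passed in replicate 1 and 12 in replicate 2.

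Like counts were found at the chromosome 6 neighbourhood, where 4 of 11 loci passed in the control. FLAG-Angel1 enrichment was seen there at 10 loci in replicate 1 and 11 in replicate 2. In contrast, all 9 loci on the minus strand at chr15:66791734-66795002 were enriched in all 3 IPs, with a median log2 fold of 1.86 for the control, 1.59 for replicate 1 and 2.35 for replicate 2. All 7 loci on the minus strand at chr22:36680459-36688209 also passed in all 3, with medians of 3.63, 2.78 and 2.71 in that order. At chr14:102548095-102552135, minus strand, the replicates parted, since 8 of 8 loci were enriched in replicate 2 (median 2.98) and in the control but 2 of 8 in replicate 1 (0.61). Gene names and annotation were not used here, as no GRCh37 gene models were at hand.

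Several single loci carried very small P values in a FLAG-Angel1 IP, and these were picked after their values were seen. The deposited −log10 P has an upper limit of 400. At chr1:26799006-26799120, plus strand, the replicate 1 value stood at this limit with a log2 fold of 2.86, beside 1.71 in replicate 2 and 1.65 in the control, where it was enriched too with a −log10 P of 5.35. At chr2:232577170-232577218, plus strand, replicate 2 was at the limit with a log2 fold of 3.80, beside 1.19 in replicate 1 and 0.69 in the control, where the −log10 P was 0.596. At chr17:19091363-19091420, plus strand, replicate 2 was at the limit with a fold of only 1.14, replicate 1 stood at 0.47 and the control at -0.24, which is not enriched. Among loci enriched in both FLAG-Angel1 IPs but not in the control, chr1:70716423-70716493 on the plus strand had FLAG-Angel1 log2 folds of 2.97 (replicate 1) and 3.66 (replicate 2) and a control fold of 1.95. A locus enriched in all 3 IPs with high FLAG-Angel1 folds, chr2:54859879-54859904 on the plus strand, had 3.98, 4.35 and 5.95 in the same order of libraries.

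The shared loci with the highest control folds were short. Because a control cluster is often split into abutting pieces that share 1 signal, abutting clusters were joined into runs, which gave 1456 runs holding shared loci. Of these, 61 reached a control log2 fold above 8, and they were 19 to 40 nt wide (median 25 nt). The 91 runs with shared loci that reached 6 to 8 had a like median width, 27 nt, but ran from 8 to 96 nt. Their 90th percentile was 78 nt, against 30 nt above 8. Chromosomes 13, 18 and 21 held 71.4% of them, against 70.5% of the runs above 8. The 29 control runs above 8 without a shared locus had a median of 28 nt, so short width was not a trait of the shared runs alone. Most of the 61 had nearly the same ends in the FLAG-Angel1 lists, with both ends within 5 nt of a joined run of replicate 1 for 57 of 61 (93.4%) and of replicate 2 for 59 of 61 (96.7%). For the 1395 runs with a control fold of 8 or less the counts were 137 (9.82%) and 156 (11.2%). Among these, the runs of 6 to 8 were not counted apart. The tolerance of 5 nt was the same for both sets, although the control runs of 8 or less were wider, with a median of 53 nt. The part of width in this difference was not tested. The joined FLAG-Angel1 runs at the places of the 61 were likewise short, with a median of 24 nt in each replicate against 103 nt and 89 nt for the runs of 8 or less. FLAG-Angel1 enrichment was found at 20 of the 61 in replicate 1 and at 33 in replicate 2. Over all autosomal clusters, not joined, it was found at 11.5% in replicate 1 and 40.5% in replicate 2. A share over all joined runs is not given, so nothing is read from these counts.

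**Figure D3:**
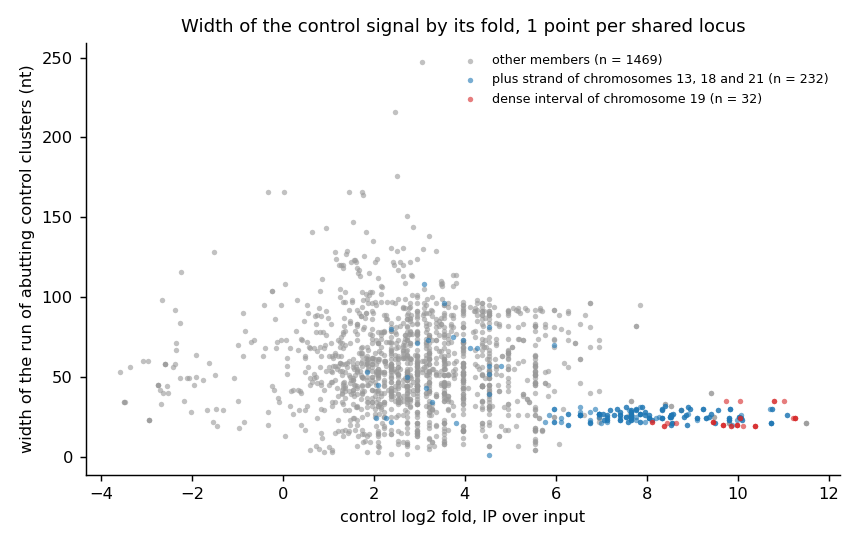
Width in nt of the run of abutting control clusters that holds each shared locus (y axis) against the control log2 fold of the locus (x axis). The plus strand of chromosomes 13, 18 and 21 (232 loci) and the dense interval of chromosome 19 (32 loci) are set apart from the other 1469. Taken as single clusters, which are often pieces of the runs plotted, these sets had median widths of 13 and 8 nt against 48 nt for the rest.

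The highest control fold of all shared loci was at chr7:116412082-116412102, plus strand, a run of 21 nt made of 3 clusters. Its control log2 fold was 11.51, beside 3.72 and 3.03 in FLAG-Angel1 replicates 1 and 2, and it was enriched in all 3. At chr21:17150648-17150673, plus strand, the values were 11.08, 3.01 and 4.39. At chr18:44012979-44013001, plus strand, they were at most 9.98, 5.19 and 3.90, and the replicate 1 fold was the highest of any shared locus. A run enriched in the control only, picked after its values were seen, was chr10:43613824-43613848 on the plus strand with log2 folds of 9.48, 0.94 and 1.14.

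Chromosomes 13, 18 and 21 held 269 shared loci (15.5%), 206 of them on chromosome 21, and 904 of all autosomal control clusters (17.0%), but 5.00% of the replicate 1 and 5.28% of the replicate 2 clusters. Of these 269 loci, 232 (86.2%) were on the plus strand, as were 84.4% of the control clusters there that were not shared. Over all FLAG-Angel1 clusters of these chromosomes the plus strand held 56.2% in replicate 1 and 54.2% in replicate 2, and on the other autosomes it held 51.4% of the shared loci. Median log2 folds on the 3 chromosomes were 7.65 (control), 0.94 (replicate 1) and 2.45 (replicate 2), against 2.95, 1.43 and 2.31 on the other autosomes. Enrichment was found at 97.8%, 18.6% and 44.2% of the loci in this order, against 80.5%, 55.7% and 84.5%. Over all autosomal clusters the shares enriched were 92.9%, 11.5% and 40.5%. Among shared loci, those on the 3 chromosomes were thus strong in the control and passed less often with FLAG-Angel1 than those elsewhere. Their FLAG-Angel1 shares were not below those over all clusters.

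The chromosome 21 loci were spread rather than piled up at a single place. The 183 on the plus strand formed 101 runs in 84 neighbourhoods between positions 15491257 and 47982682. Their control log2 fold ran from 2.05 to 11.08 with a median of 7.76, and all were enriched in the control, against 14.2% in replicate 1 and 39.9% in replicate 2. The 23 loci on the minus strand had a lower control median of 3.76 and were wider as single clusters, at a median of 39 nt against 13 nt. Of the 61 runs above 8, 34 were on chromosome 21 and all 34 on its plus strand.

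**Figure D4:**
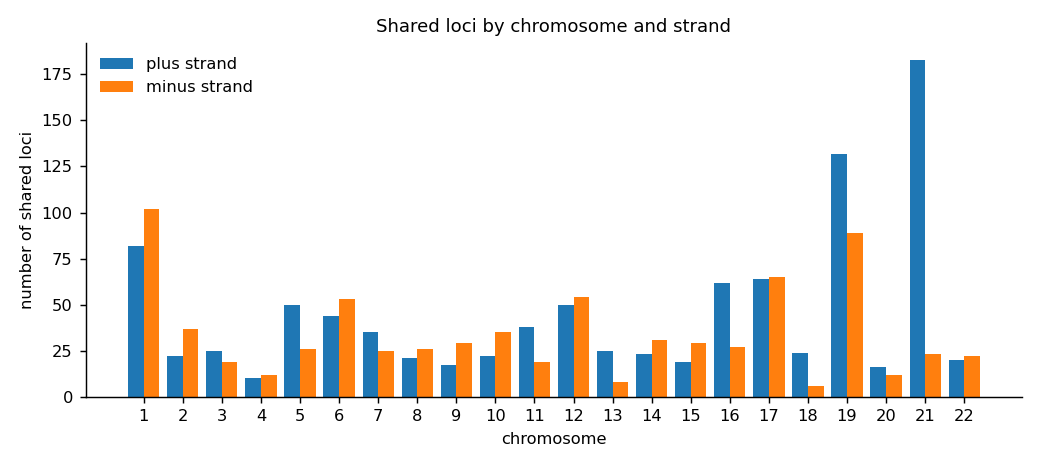
Number of shared loci on each autosome (x axis) by strand (y axis). Chromosome 21 had 183 loci on the plus and 23 on the minus strand, while chromosome 19 had the most in all, 221.

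Chromosome 19 held 221 shared loci, and 32 of them lay in an interval of little over 1 kb from 33792171 to 33793322, with 22 on the minus and 10 on the plus strand. The control log2 fold in this interval was between 8.12 and 11.25 (median 10.00), that of replicate 1 between 2.29 and 4.74 (median 3.17) and that of replicate 2 between 2.73 and 5.07 (median 3.63). Joined, the 32 loci made 11 runs, and all 11 were enriched in all 3 IPs. Of the 34 runs above 8 on chromosome 21, 5 were enriched in replicate 1 and 15 in replicate 2. Over all autosomal clusters, not joined, 11.5% were enriched in replicate 1 and 40.5% in replicate 2. The only shared loci facing one on the other strand, 5 in number, were found in the chromosome 19 interval, between 33792683 and 33792706. The other 189 loci of the chromosome lay far lower, with median log2 folds of 2.37 in the control and 1.74 and 2.06 for FLAG-Angel1.

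At the opposite end, 54 shared loci (3.12%) had a log2 fold at or below 0 in all 3 IPs, which is to say fewer IP than input reads after scaling. Their median control fold was -2.27, with FLAG-Angel1 medians of -4.36 (replicate 1) and -1.97 (replicate 2). They lay on 17 chromosomes in 38 neighbourhoods, and 28 of 54 were on the plus strand. The authors' P was 1 for clusters of this kind, so depletion was not scored. The lowest FLAG-Angel1 values were those of 3 abutting loci on the minus strand at chr10:21785504-21785526, with log2 folds of -8.42 to -8.41 (replicate 1), -6.75 (replicate 2) and -2.95 (control), a set picked after its values were seen. At chr22:43011305-43011399, plus strand, 5 loci had control values from -3.49 to -2.98, and FLAG-Angel1 values from -5.92 to -4.29 in replicate 1 and from -3.59 to -2.09 in replicate 2. The lowest control fold, -3.59, was at chr17:7478116-7478168 on the plus strand, beside -3.36 in replicate 1 and -2.06 in replicate 2.

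Across the 1733 loci, the log2 folds of the FLAG-Angel1 replicates had a Pearson's r of 0.647 and a Spearman's rho of 0.371. The points are loci that can share a partner cluster, and each fold shares its library with all others of that replicate, so the values describe loci and not samples. Over the 1497 loci with a fold above 0 in all 3 IPs, r was 0.271, so the higher value over all loci depended on those at or below 0 in at least one IP. Between the control and replicate 1 r was 0.298 and rho -0.00485, and between the control and replicate 2 they were 0.400 and 0.215. Over the 840 loci enriched in both FLAG-Angel1 IPs, r was 0.311 between the replicates, 0.528 between the control and replicate 1 and 0.476 between the control and replicate 2. The rho values were lower, at 0.246, 0.345 and 0.368 in that order. These 840 loci were chosen by their FLAG-Angel1 values and include all 32 of the dense chromosome 19 interval, with control folds from 8.12 to 11.25.

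**Figure D5:**
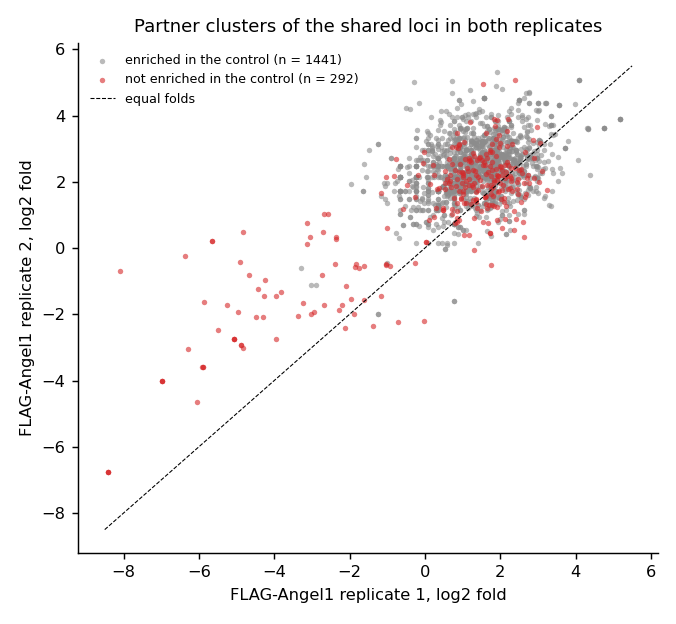
Log2 fold in FLAG-Angel1 IP replicate 2 (y axis) against replicate 1 (x axis) for each shared locus, by enrichment in the control (1441 enriched, 292 not). Loci that were low in both replicates formed a tail down to -8.42 in replicate 1 and -6.75 in replicate 2, and most points, 1415 of 1733, lay above the diagonal.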

How the data were processed

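The analysis started from the cluster lists of the 3 IPs. Before depositing them, the authors ran the Yeo laboratory's eCLIP pipeline on the reads, called clusters in each library and normalized them to the size-matched input. The submitters' processing notes name cutadapt, STAR, SAMtools, UMI-tools and GRCh37. The deposited values are a log2 fold (IP against input) and a −log10 P per cluster. Read counts were not used here, so the depth per library is unknown, and the ratio of reads was inferred from the spacing of the folds (tolerance of 1e-06 on the log2 scale).

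The shared loci, the lists compared and the loci named were chosen with earlier results of these data known. Overlaps were found with bedtools 2.31.1, and values were summarised with Python 3.11.15, numpy 2.4.6, pandas 2.3.3 and scipy 1.17.1. Figures were drawn with matplotlib 3.10.9. Wilson 95% intervals cover counting error only. The overlap step was tested on simulated data, where 1700 of 1700 planted overlaps among 5000 simulated control clusters were recovered. No test between libraries was made, since the control has 1 library. By rule, the loci named came from the 10 with the highest and the 5 with the lowest control fold, the 10 with the highest lower FLAG-Angel1 fold, and those at the edge of the overlap. The rule's genes could not be named, and the neighbourhoods and other loci named were picked after their values were seen. Alternatives covered the overlap, the strand, the thresholds, the choice of partner, the joining of abutting clusters and each replicate alone. Those leaving out chromosomes 13, 18 and 21 or control folds above 8, and the correlation over folds above 0, were chosen after seeing the data. Gene names, annotation classes, GC content and sequences were not analysed here, because no genome or gene models of GRCh37 were used.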

Additional observations from a re-analysis of the deposited data

How the results depend on the processing

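The number of shared loci fell from 1733 to 687 when the overlap had to cover 50% of both clusters, to 683 when all 3 clusters had to have P below 0.05 and to 164 at 0.001, as stricter rules admit fewer. It was 2111 to 2122 when each FLAG-Angel1 replicate was left out. The share enriched in the control was 41.9% at P below 0.001, 37.5% with a log2 fold of at least 3 as well, and 80.5% without chromosomes 13, 18 and 21. In replicate 1 these shares were 31.4%, 3.46% and 55.7%, and in replicate 2 they were 63.2%, 20.4% and 84.5%. The share enriched in both FLAG-Angel1 IPs was 29.4% at 0.001, 54.0% without those chromosomes, and 50.0% to 78.2% with a replicate left out. The replicate 1 median log2 fold was 1.42 with the partner of highest fold and 1.43 without those chromosomes, and the replicate 2 median was 2.28 without control folds above 8. Median width was 53 nt under the overlap of 50% and 48 nt without those chromosomes. The correlation between the replicates was 0.311 over loci enriched in both and 0.271 over folds above 0 in all 3. Where a value moved for another reason than fewer loci or a stricter threshold, the cause was not tested. None of the values listed in this paragraph changed sign, while the near-zero rho between the control and replicate 1 (-0.00485 over all loci) was 0.0584 without chromosomes 13, 18 and 21 and 0.345 over loci enriched in both FLAG-Angel1 IPs. No paired analysis was possible because no result comes from a test and the control has 1 library. The alternatives by annotation class and GC content were not run. The single control library and the unknown read counts limit every comparison of the control with FLAG-Angel1.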

Other observations

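Outside the autosomes, 172 control clusters met the same overlap rule, 147 of them on chromosome X, 25 in the mitochondrial genome and 0 on chromosome Y, of 385 control clusters there in all.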
